A study of Mus musculus with 24 samples.

Results

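The testis ADAM family genes described here are Adam1a, Adam1b, Adam2, Adam3, Adam4, Adam5, Adam18, Adam24 and Adam30, 9 of the 55536 genes in the table of counts. The rule took them by name, by matching the Ensembl identifiers of the table to the symbols of GENCODE M21, and used no measured value. RNA-seq was performed on pachytene/diplotene spermatocytes and on round spermatids, both enriched from testes of Ago413+/+ (wild-type), Ago413+/- (heterozygous) and Ago413-/- (null) males on a C57BL/6J background, aged 10 to 15 weeks. The Ago413 allele is a constitutive deletion that takes out all of Ago1 and parts of Ago3 and Ago4, neighbouring genes for Argonaute proteins on chromosome 4. Testes of 2 to 5 mice were pooled for a preparation, and the labels give a purity above 70% for the enriched fractions, so every library stands for a pool. The spermatocyte libraries comprised 4 of the wild type, 3 of the heterozygote and 3 of the null, and the round spermatid libraries 3, 4 and 4 in the same order. The labels name a further 3 libraries as outliers, and these were left out of the comparisons. The p-values below measure the spread between these pools.

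ADAM proteins are membrane proteins that carry a metalloprotease-like and a disintegrin domain, and a large branch of the mouse family is made in male germ cells and ends up on sperm. ADAM1A and ADAM1B, the fertilin alpha forms, each pair with ADAM2, fertilin beta. The ADAM1A-ADAM2 pair acts in the endoplasmic reticulum and is needed for ADAM3 to reach the sperm surface, and ADAM3 is required for sperm to pass the uterotubal junction and to bind the zona pellucida. ADAM24 is also known as testase 1, and ADAM18 and ADAM5 are further sperm proteins of the family.

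All coordinates are GRCm38/mm10. The fertilin alpha genes lie side by side on the minus strand, Adam1b (ENSMUSG00000062438) at chr5:121500098-121503435 and Adam1a (ENSMUSG00000072647) at chr5:121518576-121545482. Adam1b is a single exon. Adam1a has a transcript with 1 coding exon and a longer transcript with 14. Its exons overlap those of Gm42878 and Mapkapk5 on the same strand, so only 2725 of its 7508 exon bases belong to no other gene there. Of all 31-base words in the exons of Adam1b, 33.4% also occur in Adam1a. A read pair that lies wholly in such words can align to both genes and is then not counted, and how many reads were lost in this way was not measured. The stretches before their transcription starts are shown because the pair differed in expression between the fractions. The 250 bases before each start in RefSeq (GRCm38.p6, minus strand, written 5′ to 3′) are:
Adam1a, chr5:121521696-121521945: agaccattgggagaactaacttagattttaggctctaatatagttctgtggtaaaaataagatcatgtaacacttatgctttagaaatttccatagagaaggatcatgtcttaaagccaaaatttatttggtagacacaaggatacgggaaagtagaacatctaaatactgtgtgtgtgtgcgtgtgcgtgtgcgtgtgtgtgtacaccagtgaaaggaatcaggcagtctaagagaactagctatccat
Adam1b, chr5:121503436-121503685: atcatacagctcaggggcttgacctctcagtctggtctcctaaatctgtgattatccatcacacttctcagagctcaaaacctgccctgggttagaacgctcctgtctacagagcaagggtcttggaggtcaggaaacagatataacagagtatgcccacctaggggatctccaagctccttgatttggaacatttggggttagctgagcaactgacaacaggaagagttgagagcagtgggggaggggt
The longest run of letters that both windows share, read in the same direction, is 7 bases, and their GC contents are 38% for Adam1a and 50% for Adam1b. Neither window holds the cAMP response element TGACGTCA, its core TGACG or the TATA box TATAAA on either strand, so no letters are capitalised. Those motifs, of which TGACG is part of TGACGTCA, occur in 1.55%, 17.8% and 12.4% of the 32851 promoter windows of the same length in the RefSeq table. Windows for the other 7 genes were not used here.

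Adam18 (ENSMUSG00000031552, chr8:24602246-24674755), Adam3 (ENSMUSG00000031553, chr8:24677225-24725852) and Adam5 (ENSMUSG00000031554, chr8:24727093-24824369) form a cluster on the minus strand, with 2469 bases between Adam18 and Adam3 and 1240 bases between Adam3 and Adam5. Adam2 (ENSMUSG00000022039) lies at chr14:66027329-66077733. These genes have several coding exons and shared none of their 31-base words with another gene. Adam4 (ENSMUSG00000072972, chr12:81419443-81421946), Adam24 (ENSMUSG00000046723, chr8:40675077-40682199) and Adam30 (ENSMUSG00000043468, chr3:98160630-98164169) each have a single coding exon. Adam4 shared 33.3% of its words with the predicted genes Gm4787, Gm5746 and Gm33242, so its counts are the least certain of these.

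The targeted genes were checked first, as levels in CPM, read counts relative to the library size after scaling by the trimmed mean of M values (TMM). Ago1 had 0 counts in all null libraries of both fractions, and averaged 3.33 ± 0.626 CPM (SD, n = 4) in wild-type spermatocytes and 3.51 ± 0.872 CPM (n = 3) in wild-type round spermatids. Ago4 was at 12.3 ± 3.39 CPM in null against 32.1 ± 12.9 CPM in wild-type spermatocytes, while reads of the remaining part of Ago3 were higher in the null, at 64.8 ± 24.5 against 7.02 ± 2.89 CPM. Total counts ranged from 12825105 to 29749058 per library. The elongating spermatid markers (Prm1, Prm2, Prm3, Tnp1, Tnp2 and Smcp) summed to 3380 to 12000 CPM over the spermatocyte libraries used and to 16300 to 45000 CPM over the round spermatid libraries, so the separation was partial. Of the libraries left out, the one labelled wild-type round spermatid replicate 3 had only 4990 CPM of these markers, within the spermatocyte range and against its label. Those labelled wild-type spermatocyte replicate 3 and heterozygous spermatocyte replicate 4 had 14200 and 13700 CPM, between the ranges of the fractions, above all spermatocyte libraries used.

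All 9 genes were expressed in every group and passed the filter on low counts. Their summed level was 4070 ± 282 CPM (n = 4) in wild-type spermatocytes, 3670 ± 124 CPM (n = 3) in heterozygous and 4170 ± 277 CPM (n = 3) in null spermatocytes. In round spermatids it was 3510 ± 349 CPM (n = 3) in the wild type, 4140 ± 343 CPM (n = 4) in the heterozygote and 3990 ± 111 CPM (n = 4) in the null. To compare genes with each other, levels were divided by the countable exon length. Per kilobase, wild-type spermatocytes held the most Adam5, with a level of 437 ± 27.2 CPM per kb, followed by Adam3 at 393 ± 52.6 and Adam2 at 270 ± 15.0 CPM per kb. The first pair did not separate beyond their spread, and Adam2 lay below both. Adam18 and Adam1b followed at 81.5 ± 7.45 and 80.9 ± 3.84 CPM per kb, with no separation between them. Adam30, Adam24 and Adam1a, at 38.0 ± 2.58, 37.1 ± 10.7 and 32.8 ± 4.63 CPM per kb, overlapped in spread, and Adam4 was lowest at 10.1 ± 2.23 CPM per kb.

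In wild-type round spermatids the order per kilobase was Adam3 at 384 ± 45.1, Adam5 at 327 ± 33.8, Adam2 at 183 ± 19.4, Adam1a at 76.5 ± 7.26, Adam1b at 75.4 ± 10.3, Adam18 at 54.6 ± 5.56, Adam24 at 40.8 ± 11.4, Adam30 at 33.3 ± 1.89 and Adam4 at 16.8 ± 1.01 CPM per kb. Adam1a, which ranked below Adam1b in spermatocytes, stood level with it here. The neighbours Adam3 and Adam5, Adam1a and Adam1b, Adam18 and Adam24, and Adam24 and Adam30 did not separate beyond their spread.

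**Figure D1:**
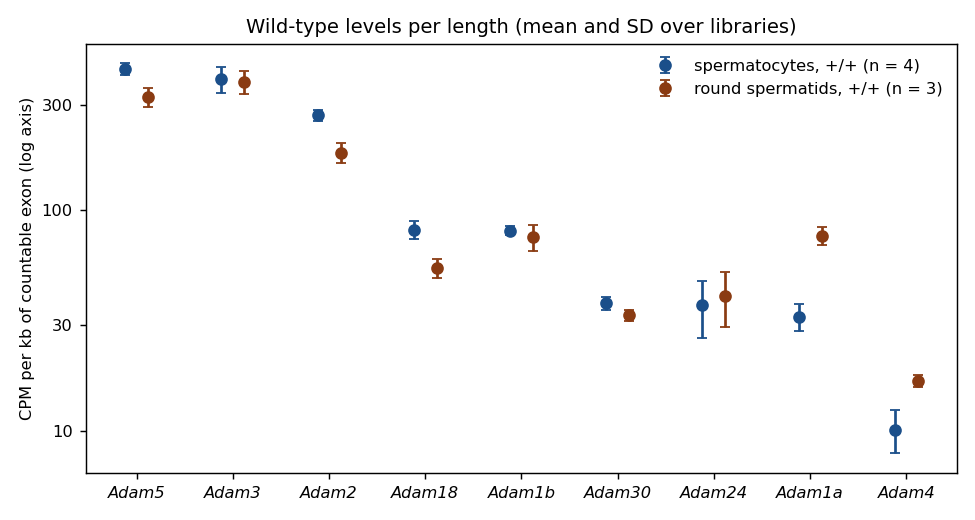
Wild-type levels of the 9 genes in CPM per kb of countable exon (vertical log axis), with spermatocytes in blue (n = 4) and round spermatids in brown (n = 3), as mean and SD over libraries. Adam5, Adam3 and Adam2 lie above the other 6 genes in both fractions, and Adam1a rises from 32.8 to 76.5 CPM per kb.

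The comparison of round spermatids with spermatocytes asked which of these transcripts accumulate or decline after meiosis. In the wild type, Adam1a and Adam4 were higher in round spermatids, and Adam2 and Adam18 were lower. These 4 of 9 genes passed the call used throughout (an adjusted p under 0.05 by edgeR together with a log2 fold change past 0.5 in either direction), which 24.2% of all genes tested passed, 12.7% as higher and 11.4% as lower. The median log2 fold change of the 9 genes was -0.10, and that of all genes was 0.02.

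Adam1a, the fertilin alpha form that works in the endoplasmic reticulum, was at 79.8, 93.2, 78.7 and 105 CPM in the wild-type spermatocyte replicates 1, 2, 4 and 5 and at 188, 209 and 228 CPM in the wild-type round spermatid replicates 1, 2 and 4. Every round spermatid library was above every spermatocyte library. The log2 fold change was 1.22 (± 0.18 SE, adjusted p = 0.000435 by edgeR), a 2.33-fold higher level. Its neighbour and paralog Adam1b, the alpha form that reaches the sperm surface, was at 270 ± 12.8 and 252 ± 34.4 CPM in the same groups, with overlapping libraries and a log2 fold change of -0.10 (± 0.12 SE, adjusted p = 0.555 by edgeR). The ratio of Adam1a to Adam1b counts within a library accordingly ranged over 0.289 to 0.389 in wild-type spermatocytes and over 0.787 to 0.864 in round spermatids, without overlap.

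Adam2, the beta subunit that both alpha forms bind, was at 718, 744, 767 and 673 CPM in wild-type spermatocytes and at 448, 478 and 550 CPM in round spermatids. All round spermatid libraries lay below all spermatocyte libraries. The level fell by 0.56 on the log2 scale (± 0.12 SE, adjusted p = 0.00204 by edgeR), and without wild-type round spermatid replicate 1 the fold was just under the threshold, at a log2 fold change of -0.497.

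In the cluster on chromosome 8 the members did not move alike. Adam18 was at 181, 218, 181 and 190 CPM in wild-type spermatocytes and at 114, 132 and 140 CPM in round spermatids, without overlap, and fell by 0.58 on the log2 scale (± 0.13 SE, adjusted p = 0.0024 by edgeR). Adam5 was at 1250, 1370, 1400 and 1450 CPM against 903, 1100 and 1060 CPM, again without overlap. Its log2 fold change of -0.42 (± 0.12 SE, adjusted p = 0.0103 by edgeR) was smaller than the fold threshold, so it was not called, although it was called with library totals in place of TMM scaling (log2 fold change -0.585, edgeR adjusted p = 0.00179). Adam3, which lies between them, was at 983, 1140, 1130 and 1360 CPM in spermatocytes and at 1000, 1270 and 1120 CPM in round spermatids, with overlapping groups and a log2 fold change of -0.03 (± 0.13 SE, adjusted p = 0.875 by edgeR). The ratio of Adam3 to Adam5 counts was 0.843 ± 0.0663 in wild-type spermatocytes and 1.1 ± 0.0446 in wild-type round spermatids.

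Among the remaining genes, Adam4 was at 23.8, 28.9, 18.2 and 30.6 CPM in wild-type spermatocytes and at 39.7, 41.9 and 44.8 CPM in round spermatids, all of which were higher. The log2 fold change was 0.73 (± 0.18 SE, adjusted p = 0.00421 by edgeR). Adam24 and Adam30 had log2 fold changes of 0.14 (± 0.20 SE) and -0.19 (± 0.11 SE) and were not called. In all, 5 of 9 genes had fractions that did not overlap, against 33.7% of all genes tested.

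**Figure D2:**
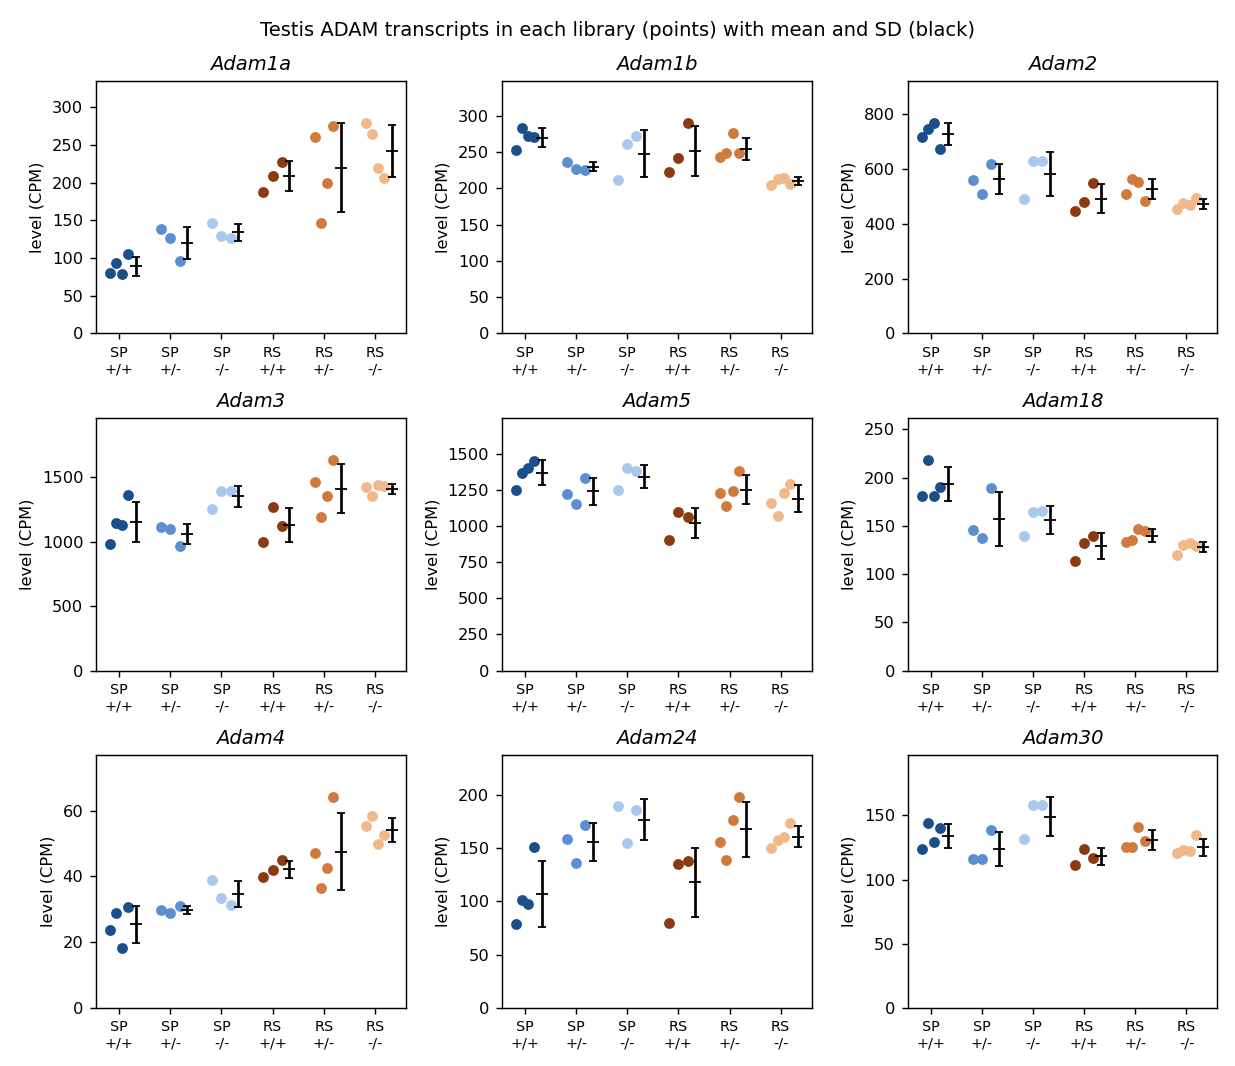
Level of each gene in CPM (vertical axis, from 0) in every library (points), with spermatocytes (SP) in blue, round spermatids (RS) in orange, genotypes from +/+ to -/- and black marks for the mean and SD of each group. Adam1a in wild-type libraries lies at 78.7 to 105 CPM in spermatocytes and at 188 to 228 CPM in round spermatids, while Adam2 lies at 673 to 767 and at 448 to 550 CPM.

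In bulk samples, fewer cells of a type and less RNA per cell cannot be told apart. In wild-type round spermatids, 6 of 6 elongating spermatid markers rose, as did 4 of 8 round spermatid markers (Acrv1, Spaca1, Spaca3, Spaca4, Tssk1, Tssk2, Catsper3 and Catsper4; sum 2000 to 2460 CPM, against 1000 to 1770 CPM in wild-type spermatocytes). Of the pachytene markers, 5 of 8 fell and 1 rose (sum 327 to 423 against 406 to 791 CPM), and 5 of 7 macrophage markers rose (sum 9.99 to 13.8 against 2.96 to 4.67 CPM, with C1qc and Lyz2 at 0 in wild-type spermatocytes). Of the spermatogonium, peritubular myoid and erythrocyte markers tested, 2 of 6, 2 of 3 and 1 of 2 rose, and of the Sertoli and Leydig cell markers 0 of 5 and 0 of 6 were called. The part of these cells in the result was not tested. With the libraries labelled as outliers added back, Adam1a had a log2 fold change of 0.88 (edgeR adjusted p = 0.063) and 0 of 9 genes were called. In those libraries Adam1a was at 178 CPM in the one labelled wild-type spermatocyte and at 160 CPM in the one labelled wild-type round spermatid, and at 203 CPM in the one labelled heterozygous spermatocyte. The one labelled wild-type spermatocyte had 21.8 CPM of macrophage markers, against 2.97 to 4.69 CPM in the other wild-type spermatocyte libraries, and its 289 CPM of pachytene markers was the lowest of all 24 libraries. The one labelled wild-type round spermatid had 8.02 CPM of macrophage markers, below all other round spermatid libraries, but its 355 CPM of pachytene markers lay within the range of the other round spermatid libraries, 307 to 489 CPM. The one labelled heterozygous spermatocyte had 7.33 CPM of macrophage and 321 CPM of pachytene markers, the first within and the second just under the 324 CPM that was lowest among the spermatocyte libraries used. The round spermatid markers summed to 1790 CPM in the one labelled wild-type round spermatid, below the other round spermatid libraries at 1840 to 3100 CPM. They summed to 1920 CPM in the one labelled wild-type spermatocyte, above the other wild-type spermatocyte libraries at 1000 to 1780 CPM. Adam2 was at 582 CPM in the first and 538 CPM in the second, and Adam18 at 171 and 144 CPM. The one labelled heterozygous spermatocyte had 2570 CPM of round spermatid markers. The markers of these libraries thus go partly with and partly against their labels, and whether the 2 wild-type labels were exchanged was not tested.

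The same comparison within the other genotypes again gave Adam1a and Adam4, and with TMM scaling neither Adam2 nor Adam18. In heterozygous mice 2 of 9 genes were called, both higher, against 8.89% of all genes in either direction and 7.07% as higher. Adam1a was at 138, 127 and 95.8 CPM in spermatocytes and at 260, 147, 199 and 275 CPM in round spermatids, with no overlap and a log2 fold change of 0.88 (± 0.19 SE, adjusted p = 0.00485 by edgeR). Adam4 had a log2 fold change of 0.67 (± 0.18 SE, adjusted p = 0.0193 by edgeR), which did not pass in 3 of the 7 fits that left out 1 library, those without heterozygous round spermatid replicate 4 or heterozygous spermatocyte replicate 1 or 3 (largest edgeR adjusted p = 0.101). With consecutive library numbers as a block its log2 fold change was 0.474 (edgeR adjusted p = 0.13), and with library totals 0.431 (edgeR adjusted p = 0.0841), so that it was not called in either. Adam3 was at 1110, 1100 and 967 CPM in spermatocytes and at 1460, 1190, 1350 and 1630 CPM in round spermatids, without overlap, and its log2 fold change of 0.41 (± 0.13 SE, adjusted p = 0.0486 by edgeR) was smaller than the fold threshold, so it was not called. Neither the Adam1a nor the Adam4 call was made with the outlier libraries added back or with the heterozygous groups fitted alone (edgeR adjusted p = 0.0826 for Adam1a and 0.115 for Adam4 in that fit). Among the markers, 5 of 6 elongating spermatid and 5 of 7 macrophage markers rose (macrophage sum 11.3 to 26.6 CPM in round spermatids against 3.79 to 7.36 CPM in spermatocytes), and so did 2 of 2 erythrocyte, 1 of 8 round spermatid, 1 of 8 pachytene and 1 of 3 peritubular myoid markers. Pachytene markers were below 0 in 6 of 8, with a median log2 fold change of -0.7. Of these 0 were called lower by edgeR and 1 by DESeq2. Round spermatid markers were below 0 in 5 of 8, with a median of -0.02. All 6 of 6 Leydig cell markers had values below 0, with a median log2 fold change of -1.56 and 1 of 6 called (sum 4.09 to 7.49 against 7.09 to 26.7 CPM). Their part in the Adam1a and Adam4 values was not tested.

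In null mice 2 of 9 genes were called, both higher, against 17.1% of all genes in either direction and 11.7% as higher. Adam1a was at 146, 129 and 126 CPM in spermatocytes and at 279, 265, 220 and 206 CPM in round spermatids, which again did not overlap. The log2 fold change was 0.85 (± 0.19 SE, adjusted p = 0.00327 by edgeR). Adam4 was at 38.9, 33.5 and 31.3 CPM against 55.3, 58.4, 49.9 and 52.7 CPM, a log2 fold change of 0.65 (± 0.18 SE, adjusted p = 0.0151 by edgeR), and was not called without null spermatocyte replicate 2 or 3 (edgeR adjusted p = 0.0602 and 0.102) or with library totals (log2 fold change 0.381, edgeR adjusted p = 0.0927). Adam2 had log2 fold changes of -0.56 in the wild type, -0.09 in the heterozygote and -0.30 in the null, and Adam18 had -0.58, -0.17 and -0.29. The heterozygous values moved with single libraries. Without heterozygous spermatocyte replicate 2 or 3, Adam18 was at -0.259 or -0.0386 and Adam2 at -0.159 or -0.0423. With library totals in place of TMM scaling, Adam2, Adam18 and Adam30 were called as lower in the null, at -0.556 (edgeR adjusted p = 0.00616), -0.543 (edgeR adjusted p = 0.00638) and -0.508 (edgeR adjusted p = 0.0076). Whether the null and wild-type values differ is given by the interaction below. Of the markers, 6 of 6 elongating spermatid and 5 of 7 macrophage markers rose (macrophage sum 16.2 to 22.9 CPM in null round spermatids against 4.1 to 9.64 CPM in null spermatocytes), as did 2 of 5 Sertoli cell markers, with a median log2 fold change of 1.48 over the list (sum 184 to 337 against 71.6 to 129 CPM). Of the pachytene markers 3 of 8 fell and 1 of 8 rose, 2 of 2 erythrocyte markers rose, and 1 marker each rose among the round spermatid, spermatogonium and peritubular myoid lists. The part of these cells was not tested.

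In spermatocytes, the comparison of null with wild-type mice asked whether loss of the Argonaute genes altered these transcripts. None of the 9 genes passed the edgeR call (0 of 9, against 0.0411% of all genes, or 8 of 19450), although 4 of 9 had an unadjusted p under 0.05, as did 30.4% of all genes. With DESeq2, 2 of 9 genes, Adam1a and Adam24, were called, against 17.6% of all genes. The 9 genes had a median log2 fold change of 0.17, with 5 of 9 above 0, and all genes had a median of -0.03, with 48.3% above 0. In 5 of 9 genes the null and wild-type libraries did not overlap, against 28.0% of all genes.

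Adam24, testase 1, had the largest difference among the 9 genes. It was at 78.6, 101, 97.6 and 151 CPM in the wild-type spermatocyte replicates 1, 2, 4 and 5 and at 190, 155 and 186 CPM in the null replicates 1, 2 and 3. All null libraries were higher, but null replicate 2 lay next to wild-type replicate 5. The log2 fold change was 0.74 (± 0.20 SE, adjusted p = 0.0618 by edgeR and 0.0156 by DESeq2). Adam1a was at 126 to 146 CPM in the null against 78.7 to 105 CPM in the wild type, without overlap, with a log2 fold change of 0.60 (± 0.17 SE, adjusted p = 0.0647 by edgeR and 0.014 by DESeq2).

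Both results turned on how the fit was made. With the outlier libraries still left out, edgeR called both genes with no filter on low counts (adjusted p = 0.00635 for Adam24 and 0.0366 for Adam1a) and with only the null and wild-type groups fitted (0.0474 and 0.0465), and Adam24 alone with the replicate number of the labels as a block (0.0496). With the outlier libraries added back neither was called, and Adam1a had a log2 fold change of 0.38 (edgeR adjusted p = 0.425) and Adam24 of 0.655 (edgeR adjusted p = 0.193). They also turned on wild-type replicate 5. Without it, Adam24 had a log2 fold change of 0.97 (edgeR adjusted p = 0.00426) and Adam1a of 0.70 (edgeR adjusted p = 0.0165), and the number of genes called among all genes went from 8 to 4526. The round spermatid markers summed to 1770 CPM in that library, to 1000 to 1240 CPM in the other wild-type spermatocyte libraries and to 1880 to 2180 CPM in the null spermatocyte libraries. All 8 of 8 of these markers were higher in the null, with a median log2 fold change of 0.65 and 0 of 8 called by edgeR and 2 of 8 by DESeq2. Pachytene markers were lower in 5 of 8, with a median of -0.65. Their mean sum was 412 CPM in the null against 539 CPM in the wild type, but the libraries overlapped. The wild-type libraries ran from 406 to 791 CPM, the highest being replicate 4. By edgeR 0 of 8 pachytene markers were called, and by DESeq2 3 of 8, all lower. Sertoli cell markers were lower in 5 of 5, with a median of -0.78 (sum 71.6 to 129 against 123 to 327 CPM) and 0 of 5 called by either tool. Spermatogonium markers had a median of 0.39 (1 of 6 called by DESeq2), the 3 macrophage markers tested 1.13 (1 of 3), the 6 elongating spermatid markers 0.21 (0 of 6), the 6 Leydig cell markers -0.27 (0 of 6) and the 3 peritubular myoid markers tested 0.13 (0 of 3). Their part in the differences between null and wild-type spermatocytes was not tested.

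**Figure D3:**
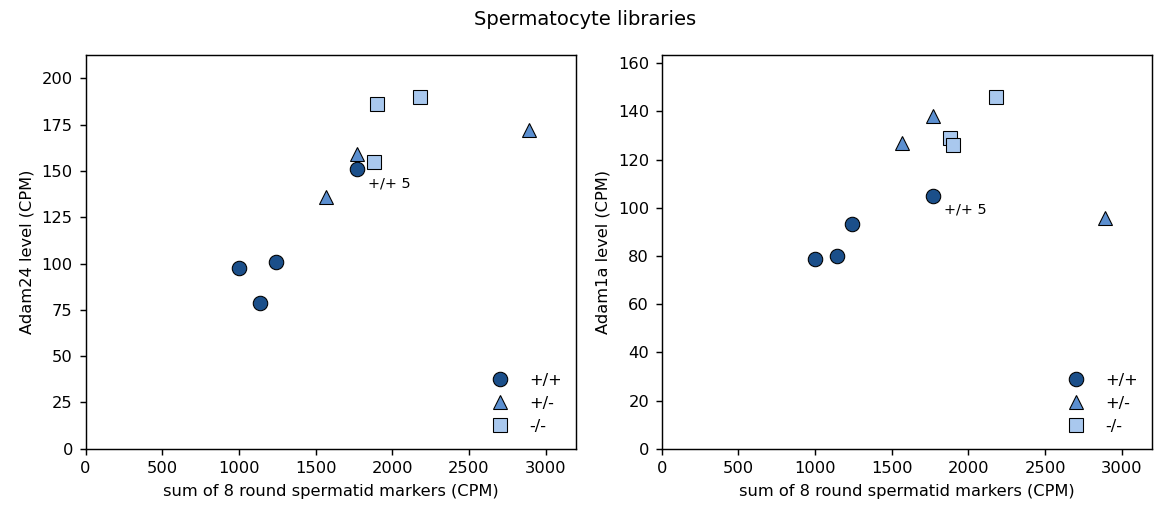
Adam24 (left) and Adam1a (right) in CPM against the summed level of 8 round spermatid markers in CPM, 1 point per spermatocyte library, with circles for +/+, triangles for +/- and squares for -/-. Wild-type replicate 5, marked +/+ 5, lies at 1770 CPM of markers, nearer to the null libraries at 1880 to 2180 CPM than to the other wild-type libraries at 1000 to 1240 CPM. Heterozygous replicate 3 has the highest marker sum, 2890 CPM, with Adam24 at 172 CPM. Its Adam1a level of 95.8 CPM lies within the wild-type range of 78.7 to 105 CPM.

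Among the genes with lower or similar values in the null spermatocytes, Adam2 was at 491, 630 and 629 CPM against 673 to 767 CPM in the wild type, without overlap, with a log2 fold change of -0.30 (± 0.13 SE, adjusted p = 0.153 by edgeR). Adam18 was at 139, 164 and 165 CPM against 181 to 218 CPM, also without overlap, with a log2 fold change of -0.28 (± 0.16 SE, adjusted p = 0.227 by edgeR). Neither difference passed the test, and the part of the cell types in them was not tested. Adam4 was at 31.3 to 38.9 CPM against 18.2 to 30.6 CPM, with a log2 fold change of 0.46 (± 0.20 SE, adjusted p = 0.145 by edgeR and 0.0818 by DESeq2). Adam3 and Adam30 had log2 fold changes of 0.24 (± 0.14 SE) and 0.17 (± 0.14 SE), Adam5 of -0.01 (± 0.12 SE) and Adam1b of -0.10 (± 0.13 SE), and in these 4 genes the groups overlapped.

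In round spermatids, none of the 9 genes passed the call between null and wild type (0 of 9, against 0.0518% of all genes by edgeR, and 0 of 9 against 5.13% by DESeq2), with an unadjusted p under 0.05 in 4 of 9 genes against 19.3% of all genes. Adam24 was at 150, 158, 161 and 174 CPM in the null and at 80.0, 135 and 138 CPM in the wild type, with all null libraries higher and wild-type replicate 1 far below the other two. Its log2 fold change was 0.42 (± 0.18 SE, adjusted p = 0.225 by edgeR), and 0.203 without wild-type replicate 1. Adam3 was at 1420, 1350, 1440 and 1430 CPM against 1000, 1270 and 1120 CPM, also without overlap, with a log2 fold change of 0.29 (± 0.13 SE, adjusted p = 0.24 by edgeR). Adam4 was at 49.9 to 58.4 CPM in the null and at 39.7 to 44.8 CPM in the wild type, with a log2 fold change of 0.33 (± 0.15 SE, adjusted p = 0.247 by edgeR).

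Adam1b was at 205, 213, 215 and 206 CPM in null round spermatids and at 223, 242 and 290 CPM in the wild type. Every null library was lower, and the log2 fold change was -0.29 (± 0.12 SE, adjusted p = 0.206 by edgeR), or -0.181 without wild-type replicate 4, the library at 290 CPM. Adam1a, by contrast in sign, had a log2 fold change of 0.18 (± 0.17 SE, adjusted p = 0.575 by edgeR), with overlapping groups, and the ratio of Adam1a to Adam1b counts was 1.00 to 1.36 in the null and 0.787 to 0.864 in the wild type. Adam5, Adam30, Adam18 and Adam2 had log2 fold changes of 0.19, 0.06, -0.04 and -0.08, with SEs of 0.12 to 0.13. In all, 4 of 9 genes had null and wild-type libraries that did not overlap, against 19.4% of all genes. The round spermatid markers summed to 2350 to 3090 CPM in the null against 2000 to 2460 CPM in the wild type, and the macrophage markers to 16.2 to 22.9 against 9.99 to 13.8 CPM. By edgeR and by DESeq2 0 markers of any list were called. The round spermatid markers were higher in 8 of 8, with a median log2 fold change of 0.31. The elongating spermatid markers were higher in 6 of 6, with 0.23. Medians were 1.44 for macrophage, 0.23 for spermatogonium, 0.16 for Sertoli cell, 0.35 for peritubular myoid and 1.2 for the 2 erythrocyte markers tested. Pachytene and Leydig cell markers each had 0.02. Their part in these values was not tested.

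**Figure D4:**
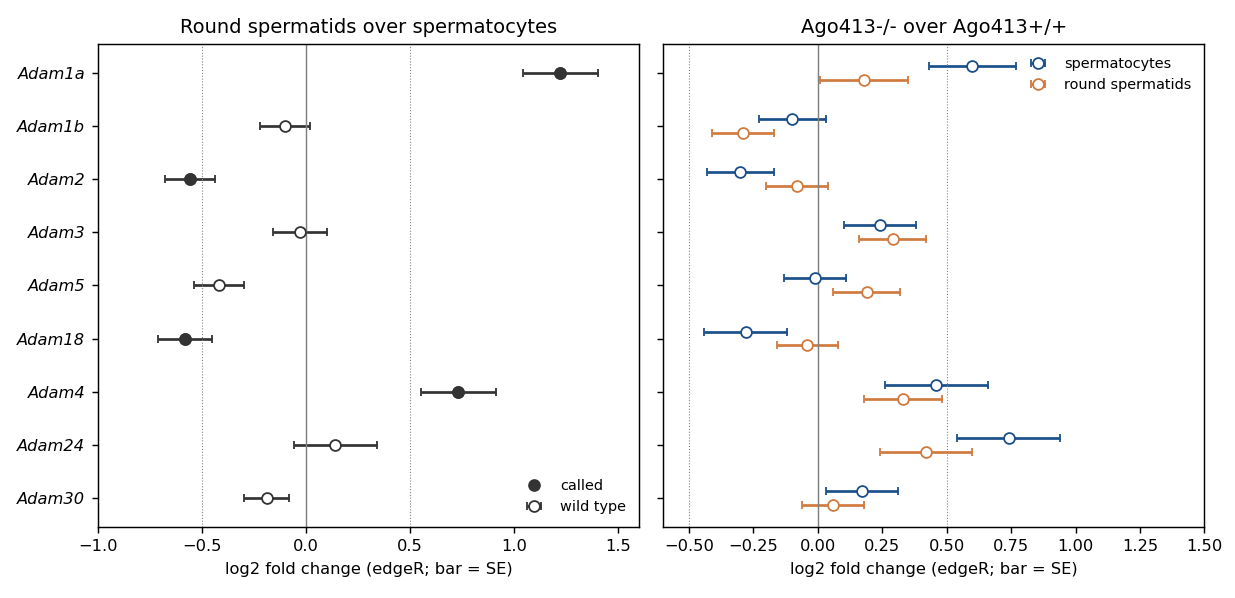
Log2 fold change of each gene (horizontal axis, points with SE bars, edgeR) for round spermatids over spermatocytes in the wild type (left) and for null over wild type (right; spermatocytes in blue, round spermatids in orange). Filled points passed the call and dotted lines mark ±0.5; 4 genes are filled on the left and 0 on the right.

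Heterozygous mice, which keep 1 intact copy of the genes, were also compared with the wild type. In spermatocytes 0 of 9 genes were called (0.0257% of all genes by edgeR), and 3 of 9 had an unadjusted p under 0.05, against 24.6% of all genes. DESeq2 also called 0 of 9, against 7.83% of all genes. Adam24 was at 159, 136 and 172 CPM in the heterozygote, where the lowest library was below wild-type replicate 5, and had a log2 fold change of 0.58 (± 0.20 SE, adjusted p = 0.135 by edgeR). Adam1a had 0.47 (± 0.17 SE, adjusted p = 0.143 by edgeR). Without wild-type replicate 5 both were called, at 0.81 for Adam24 (edgeR adjusted p = 0.0181) and 0.57 for Adam1a (edgeR adjusted p = 0.0454). Adam2, at 561, 509 and 617 CPM, was below all wild-type libraries and had a log2 fold change of -0.32 (± 0.13 SE, adjusted p = 0.168 by edgeR). Adam1b, at 226 to 236 CPM against 253 to 283 CPM, was also below all wild-type libraries, with -0.19 (± 0.13 SE, adjusted p = 0.394 by edgeR). These were the 2 of 9 genes without overlap, against 17.6% of all genes. The round spermatid markers summed to 1570 to 2890 CPM in the heterozygous spermatocytes, with 8 of 8 higher than in the wild type, a median log2 fold change of 0.75, 0 of 8 called by edgeR and 3 of 8 by DESeq2. By edgeR 0 markers of the other lists were called. The pachytene markers were lower in 7 of 8 with a median of -0.66 (2 of 8 called by DESeq2), the Leydig cell markers higher in 6 of 6 with a median of 1.31 (2 of 6) and the spermatogonium markers higher in 5 of 6 with a median of 0.82 (3 of 6). The elongating spermatid, Sertoli cell, macrophage and peritubular myoid markers had medians of 0.17, 0.14, 0.51 and 0.17, with 0 called by DESeq2. Their part was not tested.

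In round spermatids, all 9 of 9 log2 fold changes of heterozygous over wild type were above 0, from 0.03 to 0.51 with a median of 0.16, while 51.8% of all genes were above 0. The count of 9 did not hold in every fit. Adam1a was below 0 in 3 of the 7 fits that left out 1 library (down to -0.035) and Adam1b in 2 of the 7 (down to -0.0871), Adam1b also with the outlier libraries (-0.057) or with the replicate number of the labels as a block (-0.00736), and Adam18 with the outlier libraries (-0.0113). None was called (0 of 9, against 0.0207% of all genes by edgeR and 0.0363% by DESeq2), and 3 of 9 had an unadjusted p under 0.05, against 8.88% of all genes. The largest was Adam24, at 139 to 198 CPM against 80.0 to 138 CPM, with a log2 fold change of 0.51 (± 0.18 SE, adjusted p = 0.551 by edgeR), which was 0.266 without wild-type replicate 1, the library at 80.0 CPM. Adam24, Adam5 and Adam30 were the 3 of 9 genes without overlap, all higher in the heterozygote, against 9.81% of all genes. Without wild-type replicate 1 Adam3 went from 0.321 to 0.21 and Adam5 from 0.294 to 0.18. Of the markers 0 were called by edgeR. The macrophage markers were higher in 5 of 7 with a median log2 fold change of 0.57 (sum 11.3 to 26.6 CPM against 9.99 to 13.8 CPM, 1 of 7 called by DESeq2), the 2 erythrocyte markers tested had a median of 1.67, the round spermatid markers were higher in 6 of 8 with a median of 0.14, and the Leydig cell markers were lower in 4 of 6 with a median of -0.33. Their part was not tested. The heterozygous and null comparisons share the wild-type libraries and are not independent of each other.

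Null and heterozygous mice were then compared directly. In spermatocytes 0 of 9 genes were called (against 0.00514% of all genes by edgeR and 0.0206% by DESeq2), with log2 fold changes from -0.04 to 0.32, 8 of 9 of them above 0 (42.7% of all genes), and an unadjusted p under 0.05 in 1 of 9, against 3.74% of all genes. In round spermatids 0 of 9 were called as well (against 0.00518% of all genes by edgeR and 0.112% by DESeq2), with log2 fold changes from -0.32 to 0.16, 2 of 9 of them above 0 (46.6% of all genes), and an unadjusted p under 0.05 in 1 of 9, against 7.67% of all genes. That gene was Adam3 in spermatocytes and Adam1b in round spermatids. Of the markers 0 were called in either fraction by edgeR or DESeq2. In null spermatocytes the Leydig cell markers were lower in 6 of 6, with a median log2 fold change of -1.74. Their levels were low, with sums of 5.42 to 7.68 CPM in the null and 7.09 to 26.7 CPM in the heterozygote. The Sertoli cell markers were lower in 5 of 5, with a median of -0.85. In null round spermatids the round spermatid markers were higher in 8 of 8 with a median of 0.18, the macrophage markers in 6 of 7 with 0.47 and the Leydig cell markers in 5 of 6 with 0.54. Their part was not tested.

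Whether the null genotype acted differently in the fractions was tested as an interaction over all 6 groups. By edgeR and by DESeq2, 0 of 9 genes and 0 of all genes (0.0%) were called, with an unadjusted p under 0.05 in 0 of 9 and in 5.95% of all genes. The smallest edgeR adjusted p among the 9 was 0.807. The estimates ranged from -0.37 to 0.29 on the log2 scale, so for none of the 9 was the null effect shown to differ between the fractions.

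Across the 21 libraries, with the mean of each fraction subtracted, log2 levels of some of these genes varied together. Pearson's r was 0.837 for Adam2 with Adam18, 0.814 for Adam1a with Adam4, 0.757 for Adam1b with Adam2 and 0.748 for the neighbours Adam3 and Adam5. It was lowest for Adam1a with Adam2, at -0.70, although their proteins form a pair. These values describe the libraries, which share their scaling, their genotypes and their content of other germ cells. Outside the family, Nsun7, Cfap69 and Cdkl3 had the profiles most like the mean of the 9 genes over the 21 libraries, with r of 0.918, 0.912 and 0.903. After the fraction means were subtracted these were Papolb, Nsun7 and Cfap69, with 0.924, 0.902 and 0.902. The mean did not stand for all of its genes. Over the 21 libraries Adam3 and Adam24 had r of 0.881 and 0.80 with it, while Adam1b, Adam18 and Adam2 had 0.0523, -0.122 and -0.283.

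The other ADAM genes of the testis, a list of 12 symbols of which 11 were matched and tested, were set beside the 9. In wild-type round spermatids over spermatocytes 3 of 11 rose, Adam6a (log2 fold change 0.72), Adam6b (0.79) and Adam21 (0.73), and 0 of 11 fell, where 12.7% of all genes rose and 11.4% fell. The median was 0.25. Between null and wild-type spermatocytes, 10 of 11 were above 0 with a median log2 fold change of 0.85, 0 of 11 were called by edgeR and 9 of 11 by DESeq2. Of all genes 48.3% were above 0, and 0.0411% were called by edgeR and 17.6% by DESeq2. The smallest p-values were those of Adam6a at 0.77, Adam6b at 0.85 and Adam29 at 0.99 on the log2 scale, all with an edgeR adjusted p of 0.0599. In round spermatids 11 of 11 were above 0 in the null with a median of 0.44, 0 of 11 were called by edgeR and 4 of 11 by DESeq2, where 52.7% of all genes were above 0 and 0.0518% and 5.13% were called.

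Among all 20 testis ADAM genes, the values differed by gene structure, a grouping chosen after the values were seen and given without a test. The 15 genes with a single coding exon in at least 1 transcript had a median log2 fold change of 0.76 between null and wild-type spermatocytes, with 14 of 15 above 0, the exception being Adam1b. The 5 genes with several coding exons, Adam2, Adam3, Adam5, Adam18 and Adam32, had a median of -0.01, with 1 of 5 above 0. In round spermatids the medians were 0.43, with 14 of 15 above 0, and 0.01, with 3 of 5 above 0. The medians of the groups also differed where no null library was compared, while their ranges overlapped each time. Between heterozygous and wild-type round spermatids they were 0.35, with 15 of 15 above 0, and 0.13, with 5 of 5 above 0. Between heterozygous fractions they were 0.13, with 11 of 15 above 0, and -0.09, with 2 of 5 above 0. Between wild-type round spermatids and spermatocytes the medians were 0.25, with 12 of 15 above 0, and -0.42, with 0 of 5 above 0, and between heterozygous and wild-type spermatocytes they were 0.58, with 13 of 15 above 0, and -0.10, with 0 of 5 above 0. The round spermatid markers were above 0 in 8 of 8 in each of these last comparisons. Between heterozygous and wild-type round spermatids 6 of 8 were above 0, and between heterozygous fractions 3 of 8. The part of these markers was not tested.

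**Figure D5:**
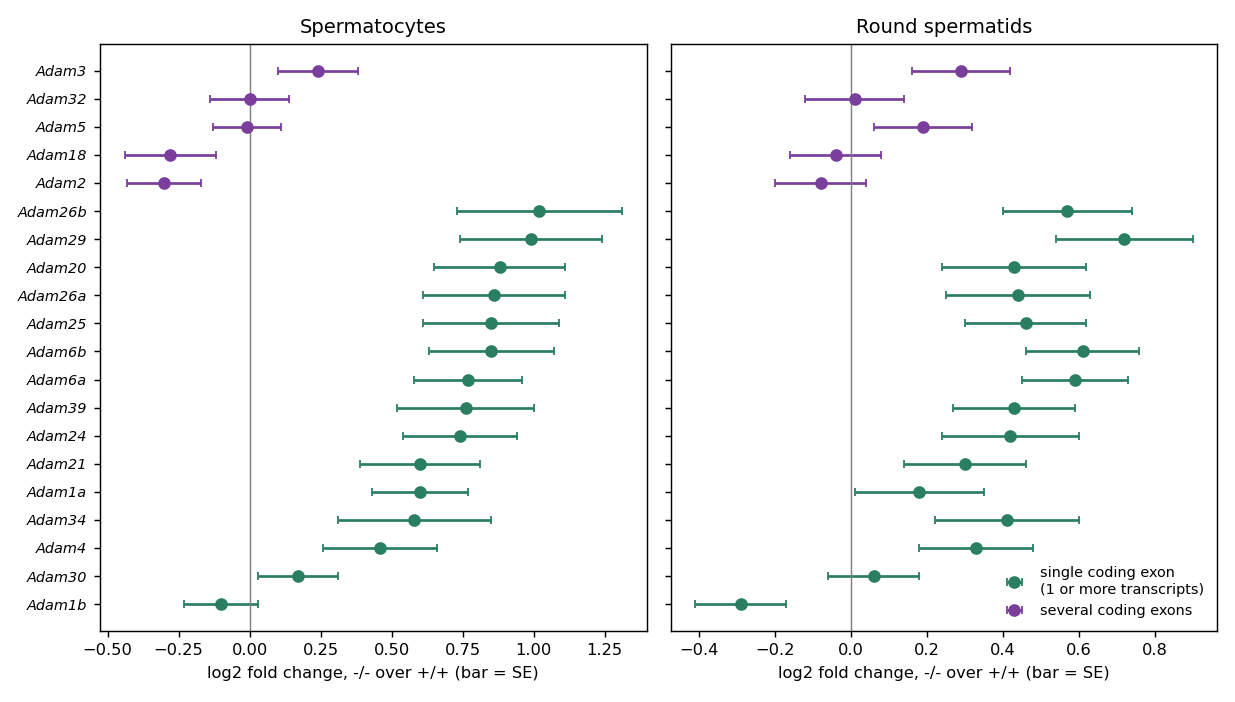
Log2 fold change of null over wild type (horizontal axis, points with SE bars) for 20 testis ADAM genes in spermatocytes (left) and round spermatids (right), coloured by number of coding exons. In spermatocytes 14 of 15 genes with a single coding exon in at least 1 transcript (green) lie above 0, against 1 of 5 with several (purple).

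Widely expressed ADAM genes, of which 10 of 12 were tested, had median log2 fold changes of -0.01 between the wild-type fractions, 0.07 between null and wild-type spermatocytes and 0.34 between null and wild-type round spermatids. By edgeR 0 of 10 were called in each, with an unadjusted p under 0.05 in 1, 2 and 3 of 10 and DESeq2 calls in 1, 2 and 1 of 10. In the same order 37.9%, 30.4% and 19.3% of all genes had an unadjusted p under 0.05, and 27.3%, 17.6% and 5.13% were called by DESeq2. The smallest p-values were those of Adam17, Adam22 and Adam19 between the fractions, of Adam15, Adam22 and Adam17 in null spermatocytes and of Adam22, Adam11 and Adam10 in null round spermatids.

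A last list held 14 genes known to act in the maturation or placement of ADAM3. In wild-type round spermatids over spermatocytes 5 of 14 rose and 2 of 14 fell, against 12.7% and 11.4% of all genes. The largest rises were those of Prss55 (log2 fold change 1.72), Ace (1.65), the testis form of which is a peptidase of sperm, Prss37 (1.62) and Calr3 (1.52), a chaperone of spermatids. Pmis2 rose by 0.88. Clgn, the chaperone calmegin that assembles the fertilin pair, fell by 0.51 on the log2 scale, close to Adam2. Tpst2 fell by 1.1 at a low level, with 1.55 ± 0.518 CPM in round spermatids against 3.39 ± 1.79 CPM in spermatocytes. The list had a median log2 fold change of 0.03 in this comparison. Between null and wild-type spermatocytes 0 of 14 were called by edgeR and 4 of 14 by DESeq2, where 17.6% of all genes were called by DESeq2, and 5 of 14 had an unadjusted p under 0.05, against 30.4% of all genes. The smallest p-values were those of Tpst2 (-1.95), Pdilt (0.84) and Ly6k (-0.74). The Tpst2 level was low, at 0.861 ± 0.133 CPM in the null against 3.39 ± 1.79 CPM in the wild type. In round spermatids 0 of 14 were called by edgeR and 1 of 14 by DESeq2, with an unadjusted p under 0.05 in 1 of 14, against 5.13% of all genes called by DESeq2 and 19.3% at an unadjusted p under 0.05.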

How the data were processed

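RNA-seq counts per gene were deposited by the authors as one table of 24 libraries. Per the study's methods and the submitters' processing notes, the authors trimmed strand-specific poly(A) reads with TrimGalore, aligned them with STAR to mm10 and took its gene counts, which keep reads with a single alignment. The tool versions, annotation release and strand column are not given in the sources used here. All 55536 identifiers were found in GENCODE M21 (GRCm38/mm10), which gave symbols and coordinates. Countable exon length left out bases shared with another gene on the same strand.

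Groups came from the sample labels. A gene was tested with 10 or more counts in 3 or more libraries. Tests were two-sided quasi-likelihood tests with TMM scaling in edgeR 4.0.16 under R 4.3.3, fitted per fraction for genotypes and over 6 groups for fractions and the interaction. Calls needed a Benjamini-Hochberg adjusted p under 0.05 over all genes and a log2 fold change past 0.5 in either direction. The deposited counts were also tested with DESeq2 1.42.0. CPM were scaled by TMM over 21 libraries and use tested genes only as their total. A count of 0 allows up to 3 counts, for counting error only. No pair of libraries in a group agreed within sampling noise (chi-square per gene 9.75 to 179 over 37 pairs). The tests were first run on simulated data.

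Same-numbered libraries correlated above 0.1 in 5 of 7 pairs within spermatocytes and 2 of 10 within round spermatids, so these numbers were not taken to pair libraries. Consecutively numbered libraries of both fractions correlated above 0.1 in all 3 wild-type and all 3 null pairs and in 2 of 3 heterozygous pairs. The labels do not say that such libraries share a preparation, so the block on these numbers was an alternative, whose value is given where it changed a call. All 9 genes are named. Of the other lists, called genes are named (4 with the largest fold where over 4, the 3 smallest p-values where none), and Pmis2, Clgn and Tpst2 are named beyond that rule. The genes and lists were chosen with earlier results of these data known. Alternatives were another scaling, no filter, only the compared groups, the outlier libraries added back, a replicate block and leaving out each library.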

Additional observations from a re-analysis of the deposited data

Results flagged for a closer look

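Of the levels, 2 stood apart within a group of 4 libraries, each a single library whose distance to the nearest other library was most of the range of the group. In null round spermatids, Adam3 was at 1350 CPM in replicate 2 and at 1420 to 1440 CPM in the other libraries, so that the gap was 0.843 of the range. Adam30 was at 135 CPM in null round spermatid replicate 4 and at 121 to 123 CPM in the others, with a gap of 0.877 of the range. Both ranges are small beside the level. In all, 27 groups were examined and 2 stood out, and chance gives about 1 in 20.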

How the results depend on the processing

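Of 846 values recomputed under an alternative, 769 kept their direction and their side of the threshold, 17 lost a call, 15 gained one and 45 changed sign; the cause was not tested. The 4 calls between the wild-type fractions, Adam1a, Adam4, Adam2 and Adam18, were also made with DESeq2, with library totals, where Adam5 was called as well, and with consecutive library numbers as a block. With the outlier libraries added back 0 genes were called, of the 9 and of all genes. 

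Between null and wild-type spermatocytes, 2 of the 9 were called with DESeq2, with no filter and with only the compared groups fitted, where 3026, 2623 and 1303 of all genes were called in place of 8. With the replicate number of the labels as a block, 1 of the 9 (Adam24) and 687 of all genes were called. These numbers were not taken to pair the libraries, although 5 of 7 same-numbered pairs within spermatocytes correlated above 0.1. For heterozygous spermatocytes against the wild type, 1228 genes were called with DESeq2, 1481 with no filter, 2 with only the compared groups, 3 with the outliers and 2 with the block in place of 5, and for null against heterozygous 4, 30 and 0 with the first 3 of these in place of 1. In round spermatids, null against wild type gave 702 (DESeq2), 20 (DESeq2 size factors), 238 (no filter) and 26 (outliers) in place of 10. Heterozygous against wild type gave 7 (DESeq2) and 10 (no filter) in place of 4, and null against heterozygous 20 (DESeq2) and 11 (no filter) in place of 1.

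Between heterozygous fractions, 1 of the 9 was called with library totals or with the block of consecutive numbers, and 0 with only the compared groups or with the outliers, in place of 2. Over all genes these fits called 2791, 1113, 505 and 0 in place of 1814. Between null fractions, library totals gave 4 of the 9 in place of 2 (Adam2, Adam18, Adam30 and Adam1a), and the outliers gave 2275 of all genes in place of 3498. Library totals moved the median log2 fold change of all genes from 0.02 to -0.15 in the wild type, from -0.06 to -0.28 in the heterozygote and from 0.00 to -0.26 in the null. The calls higher and lower went from 2601 and 2333 to 1987 and 3581, from 1443 and 371 to 1054 and 1737, and from 2392 and 1106 to 1668 and 3208. The blocks changed no other call of the 9 than Adam24 above and Adam4 between heterozygous fractions.

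With 1 library left out, the 9 genes gave 0 to 2 calls between null and wild-type and between heterozygous and wild-type spermatocytes, with 4 to 4526 and 3 to 2966 of all genes, the highest without wild-type replicate 5 each time. Over all genes, null against wild-type round spermatids gave 5 to 9 and null against heterozygous 1 to 2. Between fractions the 9 gave 3 to 4 calls in the wild type, 1 to 2 in the heterozygote and 1 to 2 in the null, with 3394 to 6398, 962 to 2329 and 1248 to 4129 of all genes. The highest and lowest were without spermatocyte replicate 5 and 4 (wild type), without spermatocyte replicate 2 and round spermatid replicate 1 or 4 (heterozygote) and without spermatocyte replicate 1 and 3 (null).

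Log2 fold changes that changed sign were small and uncalled. Adam5 between null and wild-type spermatocytes was 0.018 with DESeq2 and with its size factors, 0.0166 with no filter, 0.0366 with only the compared groups, 0.074 with the outliers and 0.00993 with the block, and -0.0321 to 0.0526 with 1 library left out. Between heterozygous and wild-type spermatocytes, the outliers gave Adam3 0.0546, Adam5 0.0208 and Adam30 0.00851, the block gave Adam3 0.0538, and leaving out 1 library gave Adam3 -0.142 to 0.017. In round spermatids, the outliers gave Adam30 -0.0104 (null against wild type) and Adam1b -0.057 and Adam18 -0.0113 (heterozygous against wild type), where the block gave Adam1b -0.00736. With 1 library left out, null against wild type gave Adam18 -0.122 to 0.0185 and Adam30 -0.00775 to 0.12, and heterozygous against wild type gave Adam1a -0.035 to 0.22 and Adam1b -0.0871 to 0.134. Between wild-type fractions, Adam3 was 0.00305 with no filter, 0.0325 with the outliers and -0.121 to 0.0552 with 1 library left out, and Adam24 was -0.025 with library totals. Between heterozygous fractions, library totals gave Adam1b -0.074, Adam5 -0.209, Adam24 -0.121 and Adam30 -0.139. There Adam5 was -0.00244 with DESeq2 and with its size factors, -0.0044 with no filter, -0.039 with the outliers, -0.0505 with the block and -0.0359 to 0.0574 with 1 library left out, and Adam24 was -0.0473 with the outliers and -0.00165 with the block. Between null fractions, library totals gave Adam3 -0.188.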
